A study of Mus musculus with 2 samples.

Results

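The genes described are mainly those of Golgi enzymes that build and cap the outer part of sugar chains. They encode sialyltransferases, fucosyltransferases, galactosyltransferases, and the GalNAc and GlcNAc transferases that start and branch the chains. They were chosen by symbol alone, as every gene whose platform symbol begins with St3gal, St6gal, St8sia, B3gnt, B3galt or B4galt, or with Galnt, Fut or Gcnt and a digit, and 68 of 19505 named genes were found. The St6gal prefix also takes in the St6galnac enzymes, and 17 of the 68 are sialyltransferase genes. The signals came from lung cells of mice that were positive for both an SPC/GFP reporter and EpCAM. SPC usually stands for surfactant protein C, which alveolar type 2 cells make, and EpCAM marks epithelial cell surfaces. The smoke group was 1 sample from mice exposed to smoke for 3 months, and the air group was 1 sample from control mice given air for 3 months. The sources used here do not give strain, age, sex, the number of animals, any pooling or the design of the reporter. Each sample was read on 1 Clariom S Mouse array, so no difference has a replicate check, an error or a p-value, and each sets 1 sample against another.

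Cells decorate membrane and secreted proteins, and some lipids, with branched sugar chains assembled step by step in the Golgi. Galnt enzymes start mucin-type O-glycans by placing GalNAc on serine or threonine. Gcnt, B3gnt, B3galt and B4galt enzymes branch and lengthen the chains with GlcNAc and galactose, and sialyltransferases and fucosyltransferases usually finish them. On airway and alveolar surfaces the finished chains coat mucins, receptors and the glycocalyx, where they are read by selectins, siglecs, galectins and respiratory viruses.

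A call of higher or lower required a log2 difference of at least 1, which is 2-fold, and a signal of 4.57 or more on the brighter array, where 4.57 is the median over all probes of both arrays. Of the 68 transferase genes, 31 passed this level filter, 28 of them on both arrays. St6galnac3, B4galt2 and St3gal4 were at least 2-fold higher in the smoke sample, and 0 of the 31 were at least 2-fold lower. Over all 10419 genes above the filter, 3.94% were called higher and 2.48% lower. The 3 calls are 9.68% of 31 genes, a share that rests on few genes: St6galnac3 and B4galt2 passed the filter through the smoke array alone. Among the 28 transferase genes above the filter on both arrays only St3gal4 was called higher, beside 3.31% of the 9510 such genes in the whole table. In sorted bulk samples, fewer cells of a type and less RNA per cell cannot be told apart.

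The RefSeq windows around the start sites of the 3 genes called higher are shown because these are the transferase genes that differed past 2-fold in 1 direction. Each runs from 250 bases before to 50 bases after the annotated start, on the strand of the gene, in build GRCm38.p6. All 3 genes lie on the minus strand: St6galnac3 at chr3:153725084-153725383, B4galt2 at chr4:117883427-117883726 and St3gal4 at chr9:35116815-35117114. Capitals mark the matches to the motifs searched.
St6galnac3: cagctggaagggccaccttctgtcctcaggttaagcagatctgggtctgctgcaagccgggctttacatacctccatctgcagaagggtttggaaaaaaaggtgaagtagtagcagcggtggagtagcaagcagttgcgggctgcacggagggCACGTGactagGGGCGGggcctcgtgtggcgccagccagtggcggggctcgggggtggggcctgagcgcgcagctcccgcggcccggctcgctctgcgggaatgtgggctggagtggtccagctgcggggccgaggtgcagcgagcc
B4galt2: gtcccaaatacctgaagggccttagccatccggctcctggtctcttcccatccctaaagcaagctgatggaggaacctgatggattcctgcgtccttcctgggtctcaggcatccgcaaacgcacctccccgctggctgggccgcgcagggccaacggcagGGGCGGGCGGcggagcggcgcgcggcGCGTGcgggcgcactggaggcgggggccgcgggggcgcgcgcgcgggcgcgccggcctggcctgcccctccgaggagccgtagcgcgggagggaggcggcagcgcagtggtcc
St3gal4: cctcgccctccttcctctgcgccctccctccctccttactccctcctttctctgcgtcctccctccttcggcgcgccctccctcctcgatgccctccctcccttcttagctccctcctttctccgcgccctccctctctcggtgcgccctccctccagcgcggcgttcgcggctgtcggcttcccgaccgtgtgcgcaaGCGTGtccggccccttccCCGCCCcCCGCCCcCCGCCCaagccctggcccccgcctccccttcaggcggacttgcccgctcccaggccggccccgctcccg

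These windows were searched on both strands for 6 motifs, and each share is that of all 32851 promoter windows in the table that hold the motif. The motifs were the E-box CACGTG (7.15%), the D-box TTANGTAA (2.32%), the ROR element AGGTCA (16.3%), the xenobiotic response core GCGTG (32.4%), the antioxidant response core TGACNNNGC (12.4%) and the GC box GGGCGG (35.7%). St6galnac3 held an E-box 97 bases before the start and a GC box 86 bases before it. B4galt2 held 2 overlapping GC boxes, 89 and 85 bases before the start, and 1 GCGTG. St3gal4 held 3 GC boxes in a row, read on the opposite strand, and 1 GCGTG. Matches are letters in these windows and no more. Of the 68 transferase genes 49 had an entry in the table, with 69 windows. Of these 69 windows 55.1% held a GC box, 43.5% GCGTG and 15.9% the antioxidant response core. The E-box was in 8.7% of them, the ROR element in 5.8% and the D-box in 1.45%. These shares were not tested against those of all windows.

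**Figure D1:**
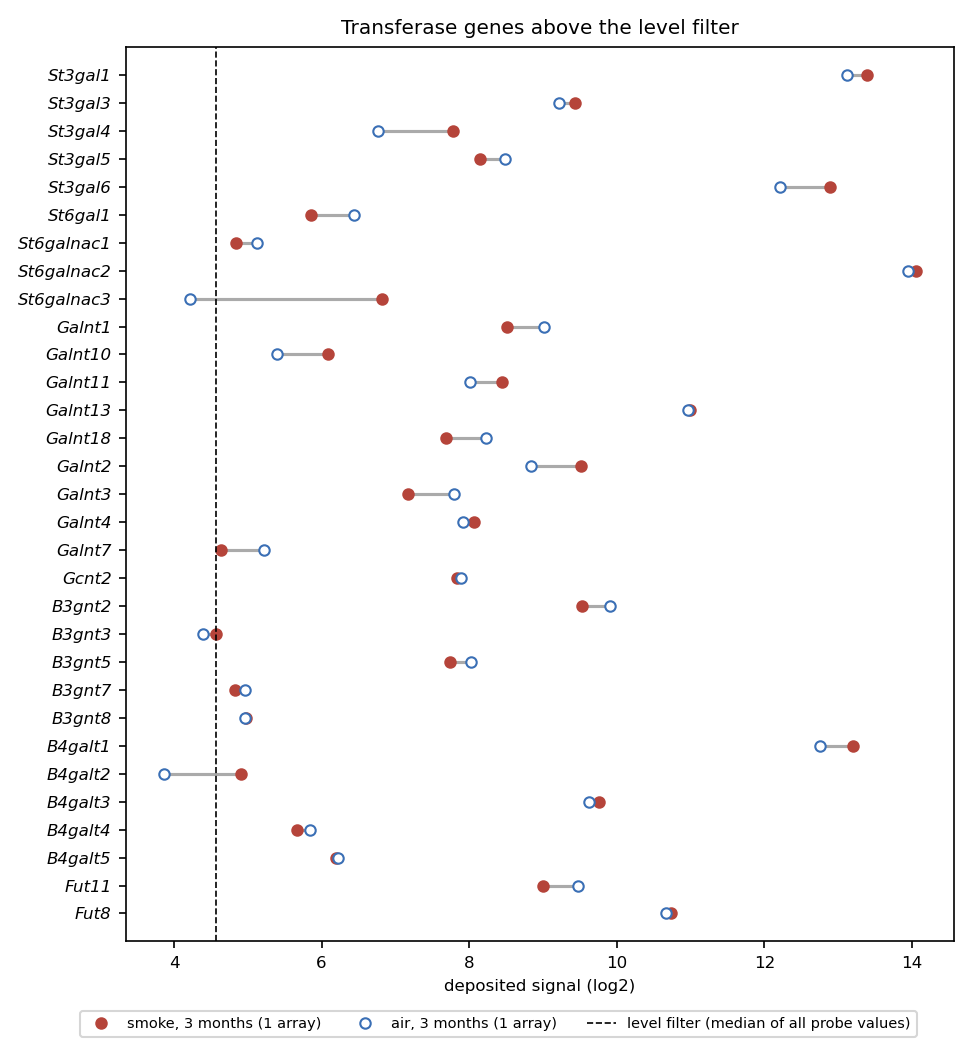
Deposited log2 signal (x axis) of the 31 transferase genes above the level filter on at least 1 array, 1 gene per row by family, with the smoke sample as filled and the air sample as open circles (1 array each). The longest bar is that of St6galnac3, with 6.82 in smoke and 4.22 in air, whereas most genes lie close to their counterpart. Positions along the axis are not comparable between genes.

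Sialyltransferases cap chains with sialic acid. St6galnac3, which adds sialic acid to the GalNAc of O-glycans and of gangliosides, had a signal of 6.82 in smoke and 4.22 in air. Its log2 difference was 2.60, a 6.06-fold higher signal in smoke, and the air value lay below the level filter. The size of the difference depends on how low signals are treated: with 16 added to both arrays on the linear scale it was 1.90, still past 2-fold. Genes of like level, in the same 1 of 10 equal bins of mean signal, had a robust SD of differences of 0.50, and 3.80% of them were called higher. This SD is a scaled median absolute deviation, mixes measurement error with real differences, and is no substitute for replicates.

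The other measured genes of the St6galnac family did not share this difference in size. St6galnac2, which sialylates GalNAc in O-glycans, stood at 14.06 in smoke and 13.95 in air. St6galnac1, the enzyme of the sialyl-Tn antigen, stood at 4.84 in smoke and 5.12 in air. St6galnac5, known in brain for making a ganglioside, had signals under the filter in both samples, 2.99 in smoke and 3.34 in air. In the RefSeq gene order St6galnac3 and St6galnac5 are neighbours with no other protein-coding gene between them, and so are St6galnac1 and St6galnac2. The log2 differences were 2.60 and -0.35 in the first pair of neighbours, and -0.28 and 0.11 in the second.

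St3gal enzymes place sialic acid on terminal galactose. St3gal4, which acts on N-acetyllactosamine and contributes to the selectin ligands of leukocytes, stood at 7.78 in smoke and 6.76 in air, above the filter on both arrays. The difference of 1.02, or 2.03-fold, lay at the edge of the threshold. It was 0.93 after quantile normalization, 0.90 after centring by level and 0.92 with the offset of 16, so the call was lost under all 3. The robust SD of genes of like level was 0.47.

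St3gal6, which acts on similar chains, stood at 12.89 in smoke and 12.21 in air, a difference of 0.68. St3gal1, which caps the core 1 chain of mucin-type O-glycans, stood at 13.39 in smoke and 13.12 in air. St3gal3 stood at 9.44 in smoke and 9.22 in air. Thus 4 of the 5 St3gal genes above the filter had the larger signal in smoke, 3 of them within 2-fold on the deposited scale. The same 4 had the larger signal in smoke after quantile normalization and after centring, where St3gal4 was also within 2-fold. The exception among the 5 was St3gal5, the synthase of ganglioside GM3, at 8.15 in smoke and 8.48 in air. St3gal2 was below the filter at 3.13 in smoke and 3.71 in air.

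St6gal1, which adds sialic acid to galactose of N-glycans and makes the ligands of the B cell lectin CD22, went the other way within 2-fold. It stood at 5.86 in smoke and 6.44 in air, a difference of -0.58 beside a robust SD of 0.47 at its level. The 6 measured St8sia genes, whose enzymes extend sialic acid chains, were all below the filter on both arrays. They include St8sia4, a polysialic acid synthase, at 4.56 in smoke and 4.53 in air, and St8sia1, the ganglioside GD3 synthase, at 2.64 in smoke and 2.27 in air. The differences of St8sia2, another polysialic acid synthase, and of St8sia3, St8sia5 and St8sia6 were 0.27, -0.42, -0.39 and -0.19. Signals below the filter give no basis for saying that a gene was silent, because no detection calls were used. Over all 17 sialyltransferase genes the median difference was 0.03, beside -0.11 over the 51 other transferase genes. The 9 sialyltransferase genes above the filter, which include St6galnac3 through its smoke signal alone, had a median of 0.22, which was 0.10 after quantile normalization and 0.13 after centring. The 22 other transferase genes above the filter had a median of 0.00, which was -0.077 after quantile normalization and -0.065 after centring. On the deposited scale the median over all genes above the filter was 0.06. The 8 sialyltransferase genes above the filter on both arrays had a median of 0.165, and the 20 other such transferase genes one of -0.035. The differences between these medians were not tested.

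**Figure D2:**
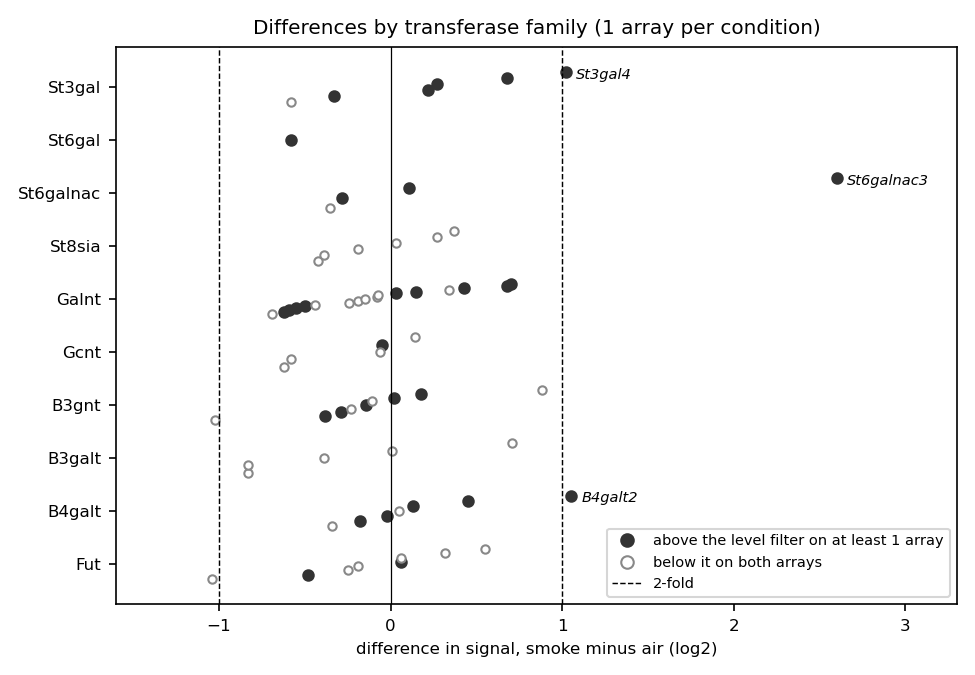
Log2 difference, smoke minus air (x axis), of all 68 transferase genes by family, with filled circles above the level filter on at least 1 array and open circles below it on both. Dashed lines mark 2-fold. St6galnac3 (2.60), B4galt2 (1.05) and St3gal4 (1.02) are the filled circles past the line on the higher side, and no filled circle lies past it on the lower side.

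The Galnt family, which starts mucin-type O-glycans, was the largest, with 17 genes, of which 9 were above the filter on both arrays and 0 differed by 2-fold. Differences ran both ways: 5 of the 9 had the larger signal in smoke and 4 in air. Galnt10, which prefers peptides that already carry GalNAc, stood at 6.09 in smoke and 5.39 in air, a difference of 0.70. Galnt2, a widely expressed initiating enzyme, stood at 9.52 in smoke and 8.84 in air, a difference of 0.68.

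On the lower side, Galnt3, best known for protecting the hormone FGF23 from cleavage, stood at 7.17 in smoke and 7.79 in air, a difference of -0.62. Galnt7, which like Galnt10 follows up earlier GalNAc, stood at 4.63 in smoke and 5.22 in air, close to the filter. Galnt18 stood at 7.68 in smoke and 8.23 in air, and Galnt1, another widely expressed initiating enzyme, at 8.51 in smoke and 9.01 in air. These 4 differences, from -0.62 to -0.50, and the 2 above compare with a robust SD of 0.46 to 0.50 among genes of like level.

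Galnt11 differed by 0.43, Galnt4 by 0.15 and Galnt13, a gene known from neurons, by 0.03. Galnt13 stood at 10.99 in smoke and 10.96 in air, and its sign turned after quantile normalization (-0.07). The 8 Galnt genes below the filter on both arrays were Galnt5, Galnt6, Galnt9, Galnt12, Galnt14, Galnt15, Galnt16 and Galnt17. Their differences lay between -0.69 and 0.34.

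Among the branching enzymes, Gcnt2, which makes the branched I antigen, was the 1 of 5 Gcnt genes above the filter. It stood at 7.84 in smoke and 7.89 in air. Gcnt1, the widely expressed core 2 enzyme, stood at 2.82 in smoke and 3.44 in air, and Gcnt3, the mucin-type core 2 enzyme of epithelium, at 2.62 in smoke and 2.48 in air. Gcnt4 and Gcnt7 were also below the filter, with differences of -0.58 and -0.06.

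B3gnt enzymes add GlcNAc to galactose and so lengthen poly-N-acetyllactosamine. B3gnt2, the main enzyme of that extension, stood at 9.53 in smoke and 9.91 in air, a difference of -0.38. B3gnt5, which starts the lacto-series glycolipids, stood at 7.74 in smoke and 8.03 in air. The remaining genes above the filter, B3gnt7, B3gnt8 and B3gnt3, differed by -0.14, 0.02 and 0.18, the last of them reaching the filter in smoke alone (4.57 in smoke, 4.39 in air). So 5 of 9 genes of this family were above the filter, and 0 passed 2-fold.

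B3gnt4 differed by more than 2-fold between signals that were both under the filter, 2.51 in smoke and 3.53 in air. Without the level filter it would be 1 of 2 transferase genes called lower. The other is Fut10, at 3.28 in smoke and 4.32 in air. Without the filter 2.09% of all 19489 genes were called lower. B3gnt6, the core 3 enzyme known from colon, stood at 2.40 in smoke and 2.63 in air. B3gnt9 and B3gntl1 differed by -0.11 and 0.88, both below the filter.

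Galactosyltransferases of the B4galt family attach galactose to GlcNAc. B4galt2, which makes N-acetyllactosamine on glycoproteins, stood at 4.91 in smoke and 3.86 in air, a difference of 1.05 or 2.07-fold. The smoke value lay just above the filter and the air value below it. In the level bin that holds this gene 7.47% of the genes above the filter were called higher, a share raised by genes that passed the filter on 1 array because they differed. With the offset of 16 the difference was 0.59, under 2-fold, and a filter on the mean of both arrays left the gene out.

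B4galt1, the best studied enzyme of the family, stood at 13.20 in smoke and 12.75 in air, a difference of 0.45. B4galt3 stood at 9.76 in smoke and 9.63 in air, a difference of 0.13 that became -0.01 after quantile normalization. B4galt4 differed by -0.18, and B4galt5, a lactosylceramide synthase, by -0.02. B4galt6, the other lactosylceramide synthase, and B4galt7, which builds the linkage region of proteoglycans, were below the filter, at differences of 0.05 and -0.34.

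All 5 B3galt genes were below the filter on both arrays. The values of B3galt6, which also works on the proteoglycan linkage region, were 4.31 in smoke and 3.60 in air. B3galt5, which makes type 1 chains, stood at 2.54 in smoke and 3.37 in air, and B3galt1 at 2.71 in smoke and 3.54 in air. B3galt2 differed by -0.39, and B3galt4, the ganglioside GM1 synthase, by 0.01.

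Many enzymes of the Fut family finish blood group and Lewis structures or mark the N-glycan core. Fut8, the single enzyme of core fucose on N-glycans, stood at 10.73 in smoke and 10.67 in air, a difference of 0.06 that turned to -0.04 after quantile normalization. Fut11 stood at 9.0 in smoke and 9.48 in air, a difference of -0.48. These were the 2 of 8 Fut genes above the filter. Fut4 and Fut7, which make sialyl Lewis x on leukocytes, stood at 3.96 and 3.74 in smoke, against 3.41 and 3.68 in air. Fut1 and Fut2, which make H antigens, stood at 2.47 and 3.46 in smoke, against 2.72 and 3.14 in air. Fut9, known for the Lewis x of brain and kidney, stood at 3.38 in smoke and 3.57 in air.

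Across all 31 transferase genes above the filter, 17 had the larger signal in smoke and 14 in air, and the median log2 difference was 0.03. Over all genes above the filter 5661 had the larger signal in smoke and 4660 in air, with a median of 0.06. At a lower threshold of 1.5-fold, 6 transferase genes were higher in smoke, 19.4% of the 31, and 2 were lower, 6.45%. The same threshold called 14.5% of all genes above the filter higher and 9.19% lower. The 3 genes added on the higher side were Galnt10, Galnt2 and St3gal6, and those on the lower side were Galnt3 and Galnt7. Weighted by the level bins of the 31 genes, the share of genes called higher at 2-fold was 3.97%, near the unweighted 3.94%. Over all 68 genes, with no filter, the median was -0.10, beside -0.02 over all genes.

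**Figure D3:**
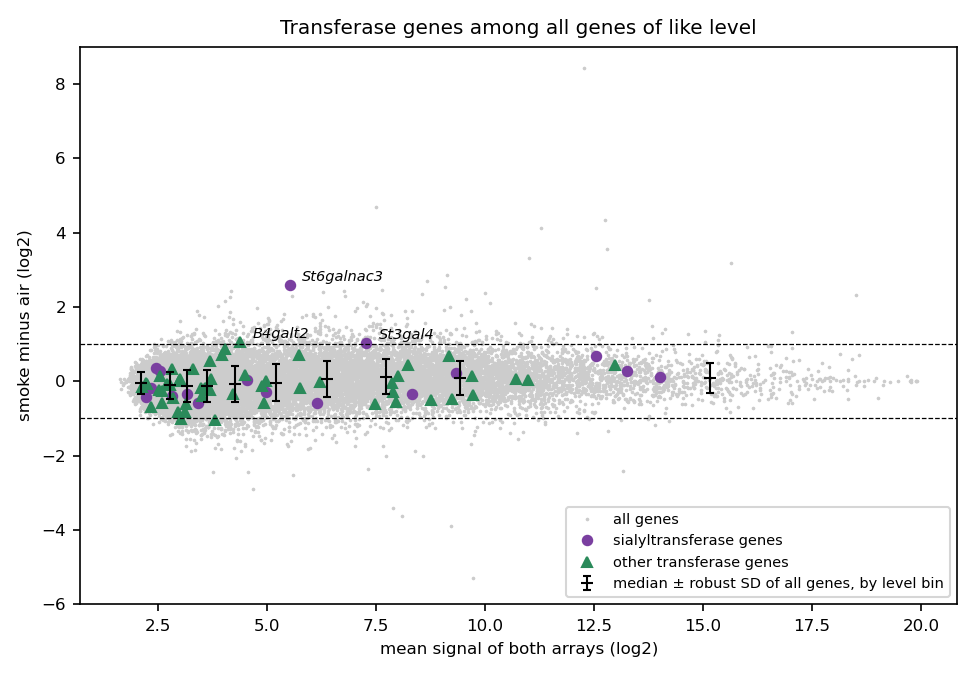
Log2 difference, smoke minus air (y axis), against the mean log2 signal of both arrays (x axis) for all genes (grey), sialyltransferase genes (circles) and the other transferase genes (triangles), with the median ± robust SD of all genes in each of 10 level bins in black. St6galnac3, at 2.60, lies past the dashed 2-fold line, while B4galt2 and St3gal4 lie near that line. The genes of like level with as large a difference as St6galnac3 were not counted.

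Levels of cell type markers were read on the same arrays. Of 12 alveolar type 2 markers 7, Sftpc among them, stood at the upper limit of the deposited scale, 19.93, on both arrays, and the other 5 lay between 17.31 and 19.91 in smoke and between 17.79 and 19.91 in air. Of 5 markers of the epithelial sort 4 had the smaller signal in smoke: Epcam stood at 10.92 in smoke and 11.09 in air, and Krt8, a keratin of simple epithelium, was called lower at 9.39 in smoke and 10.50 in air. Markers of cells outside the sort also gave signal, some of it within the range of the type 2 markers. Signals are not comparable between genes, so this does not give amounts. Scgb1a1 (club and goblet) read 19.93 in smoke and in air, so it gave no difference and was left out of the counts. The measurable club and goblet markers ran from 2.42 to 15.8 in smoke and from 2.53 to 16.13 in air. Alveolar type 1 markers ran from 5.53 to 18.54 in smoke and from 5.74 to 18.41 in air, with Ager the brightest. All 12 endothelial markers were above the filter, and 10 had the smaller signal in smoke, with Cldn5 and Eng called lower. Esam, at 8.71 in smoke and 8.05 in air, and Vwf went the other way. Over all 10419 genes above the filter 4660 had the smaller signal in smoke, 2.48% were called lower and 3.94% higher. Of 9 neutrophil markers 7 had the larger signal in smoke, as did 4 of the 5 above the filter. Of 12 macrophage and monocyte markers 5 had the larger signal in smoke, but only 1 of the 5 above the filter did. Chil3 was called lower at 9.87 in smoke and 11.27 in air. The smaller signal was in smoke for 8 of 9 alveolar type 1 markers and 7 of 9 measurable club and goblet markers. It was also in smoke for 6 of 8 ciliated markers and 6 of 10 fibroblast and smooth muscle markers. For 7 of 11 lymphocyte markers the larger signal was in smoke. Except for the type 1 list, these counts include markers below the filter. With no filter, 9971 of all 19489 genes had the smaller signal in smoke. Above the filter the smaller signal was in smoke for 5 of 6 club and goblet and 2 of 3 ciliated markers. The same held for 4 of 8 fibroblast and smooth muscle markers, and 3 of 5 lymphocyte markers had the larger signal in smoke. Called lower were Scgb3a1 and Clca1 (club and goblet), Tppp3 (ciliated), and Col1a1 and Pdgfrb (fibroblast and smooth muscle). Called higher were Cfap126 (ciliated) and Cd3d (lymphocyte). Clca1, at 3.22 in smoke and 6.13 in air, passed the filter through the air array alone. Cd3d, at 4.66 in smoke and 3.63 in air, passed it through the smoke array alone. The Cd3d difference of 1.03 was 0.54 with the offset of 16. Summed linear signals, given on the log2 scale, are set mainly by the brightest probe and do not measure a share of cells. The endothelial sum was 14.80 in smoke and 15.48 in air, and 13.73 and 14.60 without its brightest marker, Cdh5. The neutrophil sum was 9.61 in smoke and 9.13 in air, and 8.49 and 8.14 without Csf3r. The macrophage and monocyte sum was 11.35 in smoke and 11.97 in air, but without Chil3 it was 10.71 in smoke and 10.60 in air, so its direction rests on that gene. The ciliated sum was 9.77 in smoke and 10.63 in air, and it also reversed without Tppp3, to 8.47 in smoke and 7.42 in air. The part of these markers in the differences of St6galnac3, St3gal4 and B4galt2 was not tested.

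Sugar nucleotides are the donors that these transferases use. Of 25 listed genes of their synthesis and transport into the Golgi, 23 were measured, 20 were above the filter and 0 differed by 2-fold in either direction. Of the 20, all above the filter on both arrays, 14 had the larger signal in smoke, with a median difference of 0.18. Of all 9510 genes above the filter on both arrays 5280 had the larger signal in smoke, with a median of 0.07. The largest difference was that of Slc35d1, a transporter of UDP-sugars into the endoplasmic reticulum, at 7.0 in smoke and 6.21 in air. For sialic acid, Gne, the rate-limiting enzyme, stood at 12.17 in smoke and 11.60 in air, and Slc35a1, which carries CMP-sialic acid into the Golgi, at 6.65 in smoke and 6.00 in air. Cmas, which activates sialic acid, differed by 0.23 and Nans, which makes its phosphate, by -0.21.

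Enzymes that trim or edit the finished chains had 12 of 14 measured genes above the filter and 0 past 2-fold. The largest difference was that of Siae, which removes acetyl groups from sialic acid, at 8.91 in smoke and 8.03 in air. Neu1, the lysosomal sialidase, stood at 4.92 in smoke and 5.20 in air. Of the 12, 7 had the larger signal in smoke and 5 in air.

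Among other glycosyltransferases of the Golgi and endoplasmic reticulum 15 of 33 measured genes were above the filter, 2 of them called higher and 1 lower. Mgat1, which opens the way to hybrid and complex N-glycans, stood at 8.72 in smoke and 7.34 in air, 2.60-fold higher. B4galnt1, the synthase of gangliosides GM2 and GD2, stood at 13.17 in smoke and 11.94 in air, 2.35-fold higher. Both differences were past 2-fold after quantile normalization, after centring and with the offset. Mfng, a Fringe enzyme that extends O-fucose on Notch receptors, stood at 3.74 in smoke and 5.15 in air, 2.66-fold lower. It passed the filter through the air array alone, and a filter on the mean of both arrays left it out. Its difference of -1.41 was -0.81 with the offset. Over all genes above the filter 2.48% were called lower. C1galt1 and its chaperone C1galt1c1, which form core 1, differed by 0.14 and 0.17.

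Of the mucins and other sialylated carriers 12 of 20 measurable genes were above the filter, 1 called higher and 0 lower. Muc4, a membrane mucin, stood at 8.32 in smoke and 7.32 in air, exactly at the threshold, and its difference was 0.90 after quantile normalization. Muc1, a membrane mucin of type 2 cells, reached the upper limit in both samples and gave no difference. Among the lectins that bind these chains 7 of 19 were above the filter. Lgals3bp, a secreted protein that binds galectins, stood at 8.51 in smoke and 6.85 in air, 3.16-fold higher, and was the 1 gene of this list past 2-fold. Against the 3.94% of all genes called higher, these lists had 0 of 20, 0 of 12, 2 of 15, 1 of 12 and 1 of 7 genes called higher, counts too small to read as a property of a list.

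**Figure D4:**
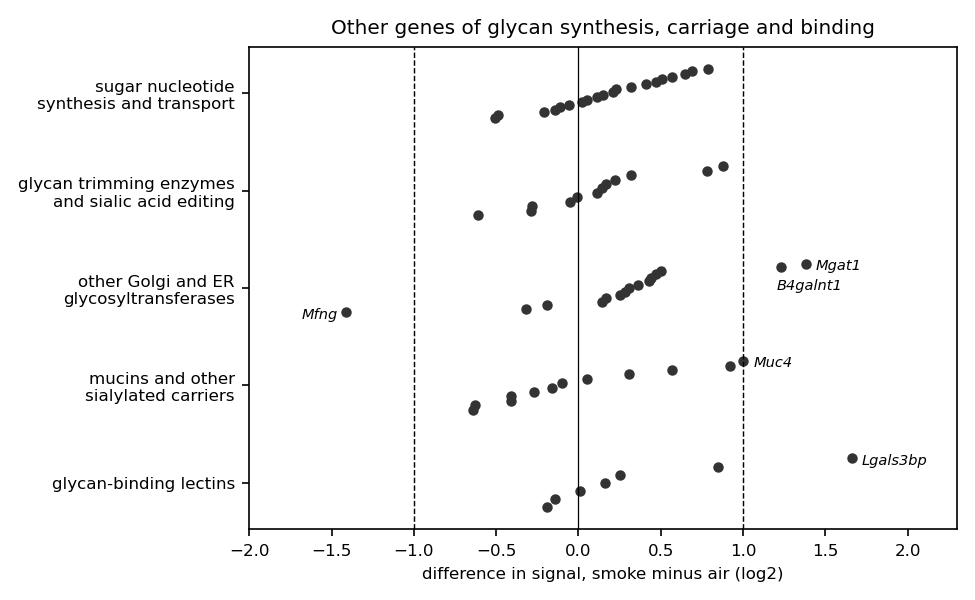
Log2 difference, smoke minus air (x axis), of the genes above the level filter in 5 lists of glycan synthesis, carriage and binding, 1 point per gene. Dashed lines mark 2-fold; Mgat1, B4galnt1, Muc4 and Lgals3bp lie on or past it on the higher side and Mfng on the lower side.

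**Figure D5:**
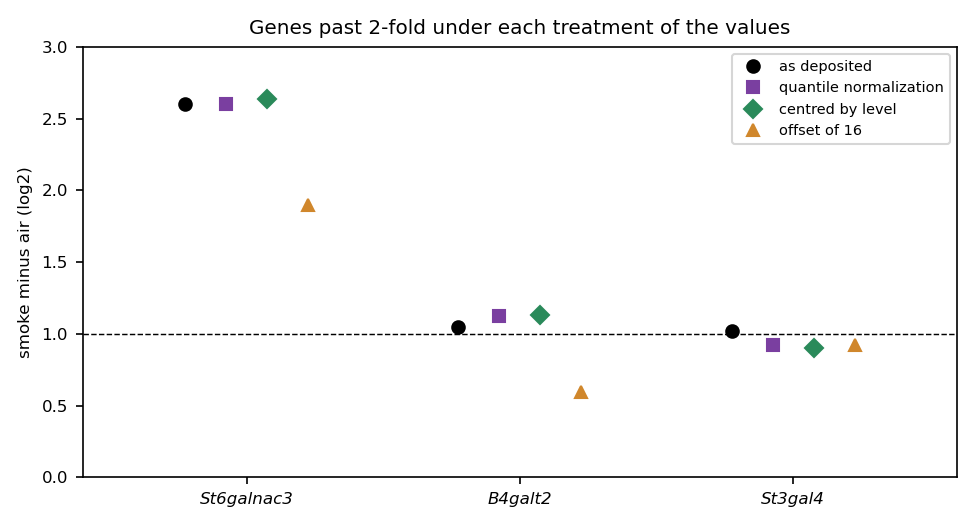
Log2 difference, smoke minus air (y axis), of the 3 transferase genes past 2-fold with the deposited values, after quantile normalization, after centring by level and after adding 16 on the linear scale. St6galnac3 stays between 1.90 and 2.64, B4galt2 between 0.59 and 1.13 and St3gal4 between 0.90 and 1.02, with the dashed line at 2-fold.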

How the data were processed

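Total RNA of sorted lung cells was hybridised to 1 Clariom S Mouse array per condition (1 smoke sample, 1 air sample). The authors deposited 1 value per platform identifier, taken here as log2 signal from its range, since no source used here states the scale. Per the submitters' processing notes the software was Transcriptome Analysis Console, without a version. The sources used here do not give the background correction, the normalization or the build. Median signals were 4.53 in smoke and 4.61 in air. Centring stays unstated; the direction follows from the labels. The number of arrays limits the precision.

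Of 22206 probes, 19572 had 1 gene symbol, 0 several and 2634 are unnamed here. They gave 19505 genes; probes of 1 gene were averaged, and all 68 transferase genes had 1 probe and matched RefSeq (GRCm38.p6) by Entrez number. Left out were 16 genes that reached the upper limit of 19.93 in both samples. Median differences moved from -0.12 to 0.12 across 10 level bins, so values were also centred by bin. Fold values hold on the deposited scale only. The call procedure was tested on simulated data, which cannot show whether a call from 1 array per group would recur in another sample. The genes, lists and thresholds were chosen with earlier results of these data known. Named genes were the transferase genes, Sftpc and Epcam, and, of each other glycan list, up to 3 called genes per direction or the gene with the largest difference. Marker lists are given by counts. Gne, Slc35a1, Cmas, Nans, Neu1, C1galt1, C1galt1c1, Muc1 and the other cell type markers named were added after their values were seen. So were the marker sums without the brightest gene, the rescaled medians of sialyltransferase and other transferase genes, and their medians above the filter on both arrays. Analyses used Python 3.11.15, numpy 2.4.6 and pandas 2.3.3.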

Additional observations from a re-analysis of the deposited data

How the results depend on the processing

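No paired analysis was possible because each group holds 1 sample; for the same reason no sample could be left out. The count of 3 transferase genes higher in smoke was 1 with a filter at the 75th percentile (St3gal4), 1 at 3-fold and 1 with the offset of 16 (both St6galnac3), and 6 at 1.5-fold. The count of 0 lower was 2 without a filter and 2 at 1.5-fold. Quantile normalization, centring and the filter on the mean of both arrays each gave 2 higher. Over all genes, 410 higher became 212 at the 75th percentile, 1514 at 1.5-fold, 66 at 3-fold and 244 with the offset; 258 lower became 407 without a filter, 74 at the 75th percentile, 958 at 1.5-fold, 35 at 3-fold and 102 with the offset. The median of 0.03 over the transferase genes above the filter was -0.095 without it, -0.027 after quantile normalization and -0.02 after centring. Of the 31 genes, 28 kept their sign after quantile normalization, 29 after centring and 31 with the offset. The thresholds and filters change the counts by their construction. So does the offset, which shrinks differences more at low signals than at high ones. Centring subtracts the median difference of a level bin, and quantile normalization gives both arrays the same distribution. Why the deposited differences vary with level was not tested. Signals near or below the filter limit B4galt2 and the air value of St6galnac3.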
